A study of Mus musculus with 6 samples.

Results

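Creatine kinases and the genes that supply creatine were examined in cardiomyocytes with and without expression of RIT1 M90I. The 7 genes were Ckm, Ckb, Ckmt1, Ckmt2, Gatm, Gamt and Slc6a8, taken from the 54532 genes of the expression table by matching their Ensembl IDs to gene symbols (GENCODE M21). RNA-seq was performed on primary cardiomyocytes from hearts of neonatal mice aged 1 to 3 days, with about 1 heart per well. All mice carried a modified Rit1 gene that expresses the M90I variant of RIT1, a RAS-family GTPase mutated in Noonan syndrome, once Cre recombinase has acted on it. On day 3 after isolation the cells received an adenovirus encoding GFP alone (AdGFP, 3 samples, labelled Rit1 +/+) or GFP and Cre (AdCre, 3 samples, labelled Rit1 M90I/+), and RNA was collected on day 6 after infection. No AdCre sample lacked the engineered locus, so the variant and Cre itself cannot be told apart. Samples are labelled as biological replicates 1 to 3 in each group, without a statement of which cultures or litters they came from, and p-values measure the spread between these samples, which may be technical.

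Creatine kinases move a phosphate group between ATP and creatine, which gives muscle and brain a fast energy reserve and a shuttle between mitochondria and sites of ATP use. Cytosolic dimers are built from the M subunit (Ckm), typical of mature striated muscle, and the B subunit (Ckb), typical of brain, smooth muscle and the immature heart. Mitochondrial octamers in the intermembrane space are built either from the sarcomeric form (Ckmt2), found in striated muscle, or from the ubiquitous form (Ckmt1), found in brain and epithelia. Creatine is made from arginine and glycine by Gatm and then Gamt, mainly outside the heart, and heart cells import it through the transporter Slc6a8.

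Levels were deposited as FPKM (fragments per kilobase of transcript and per unit of depth), which are per length. Comparisons between genes depend on the lengths used, which join the exons of all transcripts of a gene. These were 2895 bases in 2 separate stretches for Ckb and 2913 bases for Ckm, against 1486 bases in 10 stretches for Ckmt2. Ckb and Ckm therefore stand lower against Ckmt2 in FPKM than in reads. Reads worked back from these values came to between 25.3 and 32.4 M per sample. Differences were tested with limma on log2(FPKM + 0.1). Genes averaging 0.5 FPKM or more entered the test, 13794 in all, and the 7 creatine genes were among them. A gene is said to pass, to rise or to fall at an adjusted p-value under 0.05. Across all genes 1 passed, or 0.00725%. Same-numbered AdGFP and AdCre samples deviated together from their group means (r across genes between 0.268 and 0.568), so a fit with the replicate number as a block is given beside it. With the block 848 genes passed, or 6.15% (364 higher and 484 lower), and the split turned to 538 higher and 337 lower after rescaling to TPM and to 479 and 395 when the authors' scaling factors were taken out. The blocked fit called 0 genes when eBayes had no trend, 17 without a filter on low values and 1 without both samples of number 3.

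All 16 cardiomyocyte marker genes had signal, and their summed level was 5667 to 9722 FPKM in AdGFP and 3209 to 5026 FPKM in AdCre. Fibroblast markers were also abundant, at 2589 to 4644 FPKM in AdGFP and 2272 to 3324 FPKM in AdCre for 8 genes. The 6 endothelial markers summed to 81.8 to 122 FPKM in AdGFP and 120.1 to 171 FPKM in AdCre. Smooth muscle and pericyte markers (6 genes) came to 789 to 1258 and 938 to 1164 FPKM, and macrophage markers (5 genes) to 40.6 to 222 and 73.5 to 276 FPKM. Epicardial markers (5 genes) lay at 91.9 to 196 FPKM in AdGFP against 88.3 to 116 FPKM in AdCre, and Schwann and neuronal markers (6 genes) at 43.7 to 68 and 54.2 to 67.0 FPKM. Of the 5 red blood cell markers Hbb-bt and Hba-a2 were at 0 in every sample, and the summed level stayed at or under 2.18 FPKM. With the block, 3 endothelial genes (Flt1, Eng and Cdh5) and 1 macrophage gene (Lyz2) rose and 3 fibroblast genes (Dcn, Col3a1 and Lum) fell, where 2.64% of all genes rose and 3.51% fell. The limma adjusted p with the block was 0.0497 for Lyz2 and 0.0484 for Col3a1, just under the threshold. In bulk RNA, fewer cells of a type and less transcript per cell cannot be told apart, and the part of cell composition in the results that follow was not tested.

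Transcripts of the B subunit Ckb and of the ubiquitous mitochondrial kinase Ckmt1 were higher in AdCre in all 3 same-numbered comparisons. Those of the sarcomeric mitochondrial kinase Ckmt2 and of the synthesis enzyme Gatm were lower in all 3. Ckm, Gamt and Slc6a8 had no common direction. Without the block 0 of 7 passed (limma, 2 of 7 at an unadjusted p under 0.05, which 10.2% of all genes reached). With the block 4 of 7 passed, where 6.15% of all genes did. Of these, 2 were higher (Ckb and Ckmt1, beside 2.64% of all genes) and 2 were lower (Ckmt2 and Gatm, beside 3.51%). A common direction in all 3 pairs was found for 4 of 7, beside 48.4% of all genes (23.9% higher and 24.5% lower). Groups that did not overlap were found for Ckmt1 alone among the 7, beside 15.4% of all genes (7.36% higher and 8.02% lower). Both counts are near the share of all genes. All 4 passes with the block were lost when low genes were kept, when eBayes had no trend or without pair 3 (limma adjusted p 0.0754 to 0.152), that of Ckmt2 also without pair 1 (0.0542) and those of Ckb and Gatm without pair 2 (0.106 and 0.0793).

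**Figure D1:**
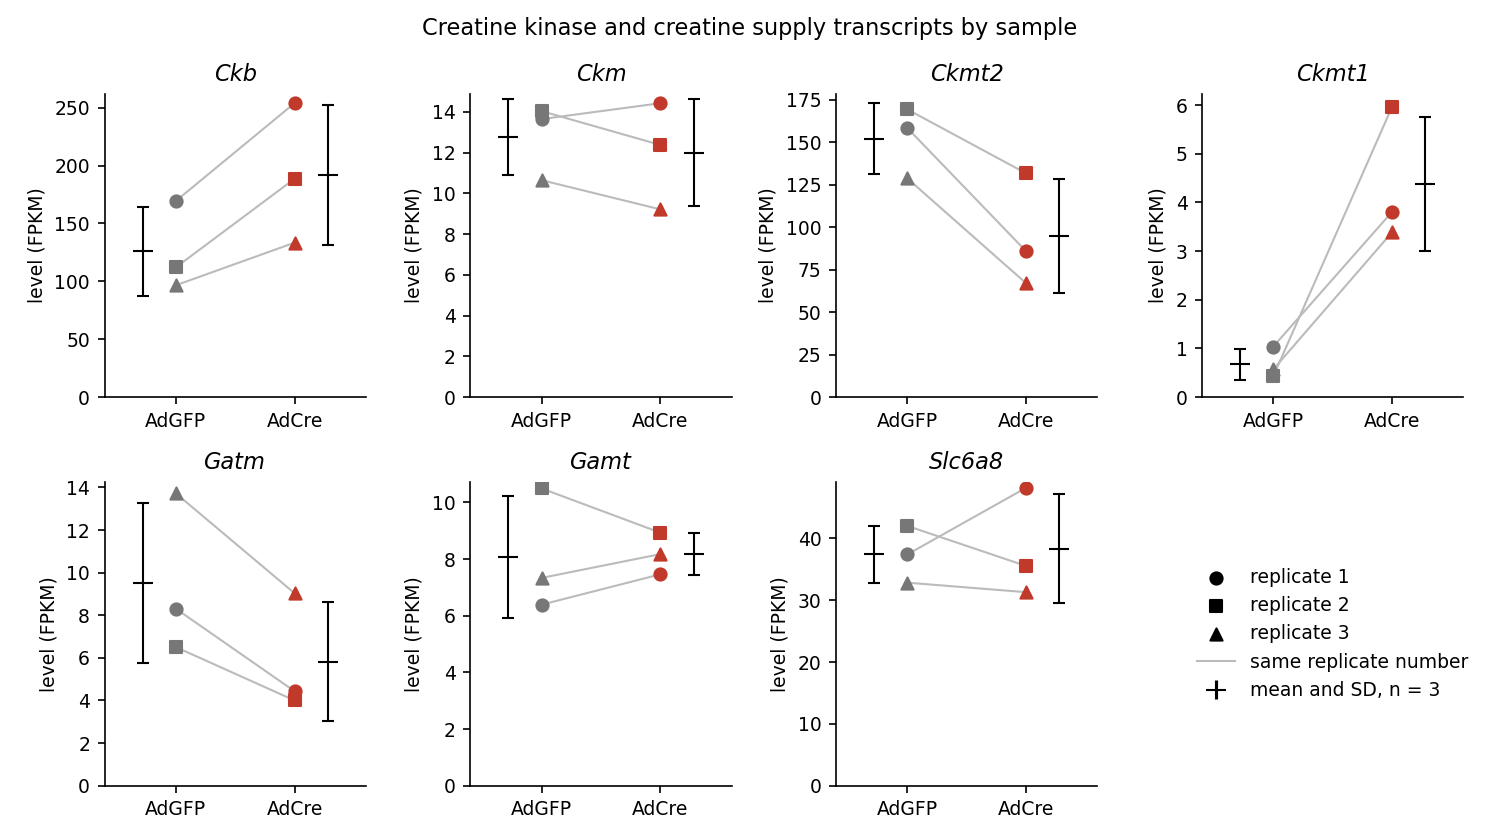
Level of each creatine gene in FPKM (vertical axis, from 0) in AdGFP and AdCre. Each point is 1 sample, grey lines join samples with the same replicate number, and black bars give the mean and SD of 3 samples. Ckmt1 is separated completely, with at most 1.04 FPKM in AdGFP and at least 3.38 FPKM in AdCre, while Ckb lines all go up and Ckmt2 and Gatm lines all go down.

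The promoters of the 4 genes that passed with the block are shown because these are the genes on which the comparison turns, 2 higher and 2 lower. RefSeq promoter windows (GRCm38.p6) matched 6 of the 7 genes, Slc6a8 being the exception, and 2 windows were listed for Ckmt1, of which the first is shown. The stretch covers the 250 bases before the RefSeq start, cut short where a GENCODE transcript of the gene already begins, and is written 5′ to 3′ on the strand of the gene. Capitals mark matches on either strand to the motifs searched: the E-box CANNTG bound by MyoD-type and other helix-loop-helix factors, the nuclear receptor half-site AGGTCA, the TATA box TATAAA, the GC box GGGCGG, and the MEF2 site by its name.
Ckb, chr12:111672339-111672588, minus strand: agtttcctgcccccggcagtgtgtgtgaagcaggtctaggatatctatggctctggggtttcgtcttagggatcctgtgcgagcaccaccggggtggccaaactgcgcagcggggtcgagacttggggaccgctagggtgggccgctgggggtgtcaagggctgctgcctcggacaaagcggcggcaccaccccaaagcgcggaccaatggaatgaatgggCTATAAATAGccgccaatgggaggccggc
Ckmt1, chr2:121357526-121357713, plus strand: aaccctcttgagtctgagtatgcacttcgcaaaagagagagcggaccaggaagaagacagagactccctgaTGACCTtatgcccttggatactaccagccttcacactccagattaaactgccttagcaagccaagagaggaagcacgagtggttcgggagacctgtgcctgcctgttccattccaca
Ckmt2, chr13:91876886-91877135, minus strand: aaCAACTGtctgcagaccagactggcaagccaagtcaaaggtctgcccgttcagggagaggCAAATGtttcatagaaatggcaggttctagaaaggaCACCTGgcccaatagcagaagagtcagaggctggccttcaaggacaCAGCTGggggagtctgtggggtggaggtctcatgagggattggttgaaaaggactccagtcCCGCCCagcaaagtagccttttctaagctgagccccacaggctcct
Gatm, chr2:122611304-122611527, minus strand: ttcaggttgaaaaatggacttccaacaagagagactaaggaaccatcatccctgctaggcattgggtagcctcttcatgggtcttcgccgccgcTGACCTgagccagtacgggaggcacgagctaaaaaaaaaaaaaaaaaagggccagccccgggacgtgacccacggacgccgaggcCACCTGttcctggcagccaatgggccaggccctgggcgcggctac

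The Ckb window held 1 MEF2 match, which starts 29 bases before the start of the gene and contains a TATAAA, 28 bases before it, so that these 2 matches overlap. MEF2 matches were present in 1.69% and TATAAA in 12.4% of all 32851 promoter windows of this length. The Ckmt2 window was the one with 4 E-boxes, starting 248, 189, 153 and 107 bases before the start, and a GC box at 46. An E-box was present in 66.2% and a GC box in 32.7% of all windows. The first Ckmt1 window had an AGGTCA match at 179 and a TATAAA at 31 bases before the start, the latter in the 62 bases left out above because they belong to a GENCODE transcript. Its second window held none of the 5 motifs. The Gatm window had an AGGTCA match at 156 and an E-box at 71, and AGGTCA was present in 14.0% of all windows. GC content was 62.8% for Ckb with 16 CpG, 52.8% for Ckmt1 with 4, 54% for Ckmt2 with 2 and 59.2% for Gatm with 17, beside a median of 52.4% over all windows and 6 CpG. These matches are descriptions of letters and were not tested for binding.

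Among the cytosolic subunits, Ckb was the abundant one in these cells. Ckb (ENSMUSG00000001270, GRCm38 chromosome 12, 111669361 to 111672338, minus strand) stood at 169, 112 and 96.6 FPKM in AdGFP 1 to 3 and at 254, 189 and 133 FPKM in AdCre 1 to 3. Within each number the AdCre sample was the higher one, but AdCre 3 lay below AdGFP 1, so the groups overlapped. Means were 126 ± 38.3 and 192 ± 60.3 FPKM (SD, n = 3 each). This log2 difference of 0.60 had an SE of 0.29 in limma without the block (adjusted p 0.562) and of 0.085 with it (adjusted p 0.0268). It was 0.37 without AdCre 1. Pairwise log2 differences were 0.58, 0.75 and 0.47, so the pairs differed less from each other than the samples within a group did. Of the 50-base words in Ckb transcripts, 9.98% also occur in other genes, mostly the pseudogenes Gm12892, Ckb-ps2 and Ckb-ps1, and that part of its level is uncertain.

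Ckm (ENSMUSG00000030399, chromosome 7, 19404776 to 19422841, plus strand), the M subunit, was measured at 13.7, 14.0 and 10.7 FPKM in AdGFP and at 14.4, 12.4 and 9.22 FPKM in AdCre. Replicate 3 was the lowest in both groups, and the ranges overlapped almost entirely. Means were 12.8 ± 1.85 and 12.0 ± 2.62 FPKM (SD, n = 3 each), and the log2 difference was -0.10 (SE 0.20, limma adjusted p 0.926). The 95% interval of the difference ran from -0.57 to 0.36 without the block and from -0.33 to 0.12 with it, and a change by 1 log2 unit lay outside both. Ckm was the minor cytosolic subunit in every sample, its share of the Ckm and Ckb sum being 7.46, 11.1 and 9.93% in AdGFP against 5.38, 6.16 and 6.46% in AdCre. The noncoding gene A930016O22Rik is antisense to 15.5% of Ckm exon sequence, and whether counting used strand is not given in the sources used here.

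The mitochondrial kinases moved against each other. Ckmt1 (ENSMUSG00000000308, chromosome 2, 121357714 to 121363737, plus strand) was low in AdGFP, at 1.04, 0.427 and 0.569 FPKM, and reached 3.80, 5.96 and 3.38 FPKM in AdCre. These levels rest on 64, 27 and 35 reads in AdGFP and on 304, 384 and 234 reads in AdCre. The groups were fully separated. The mean rose from 0.678 ± 0.320 to 4.38 ± 1.38 FPKM (SD, n = 3 each), a ratio of 6.46. On the log2 scale the difference was 2.56, with an SE of 0.35 and a limma adjusted p of 0.102 without the block and an SE of 0.33 and an adjusted p of 0.0215 with it. These values rest on a pseudocount of 0.1 FPKM; with 1 FPKM the difference was 1.67 (limma adjusted p 0.0908 without the block). An exact two-sided permutation test gave 0.1, its lower limit for 3 samples against 3. The 95% interval was 1.74 to 3.38 in the fit without the block. Pairwise differences of 1.78, 3.52 and 2.38 varied more than those of the other creatine genes. None of the 50-base words of Ckmt1 was found in another gene.

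Ckmt2 (ENSMUSG00000021622, chromosome 13, 91853387 to 91876885, minus strand) was among the most abundant transcripts of the AdGFP cultures, at rank 237 of the protein-coding genes by mean level. It was measured at 158, 169 and 129 FPKM in AdGFP and at 85.8, 132 and 67.0 FPKM in AdCre. AdCre 1 and AdCre 3 lay below all AdGFP samples, and AdCre 2 fell inside the AdGFP range, just above AdGFP 3. The mean went from 152 ± 21.02 to 94.8 ± 33.2 FPKM (SD, n = 3 each), and its rank to 414. This log2 difference of -0.73 had an SE of 0.26 in limma without the block (adjusted p 0.416, unadjusted 0.0252) and of 0.13 with it (adjusted p 0.0364). Pairwise log2 differences were -0.88, -0.36 and -0.94. The antisense gene 1700119I11Rik shares 5.65% of its exon positions.

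**Figure D2:**
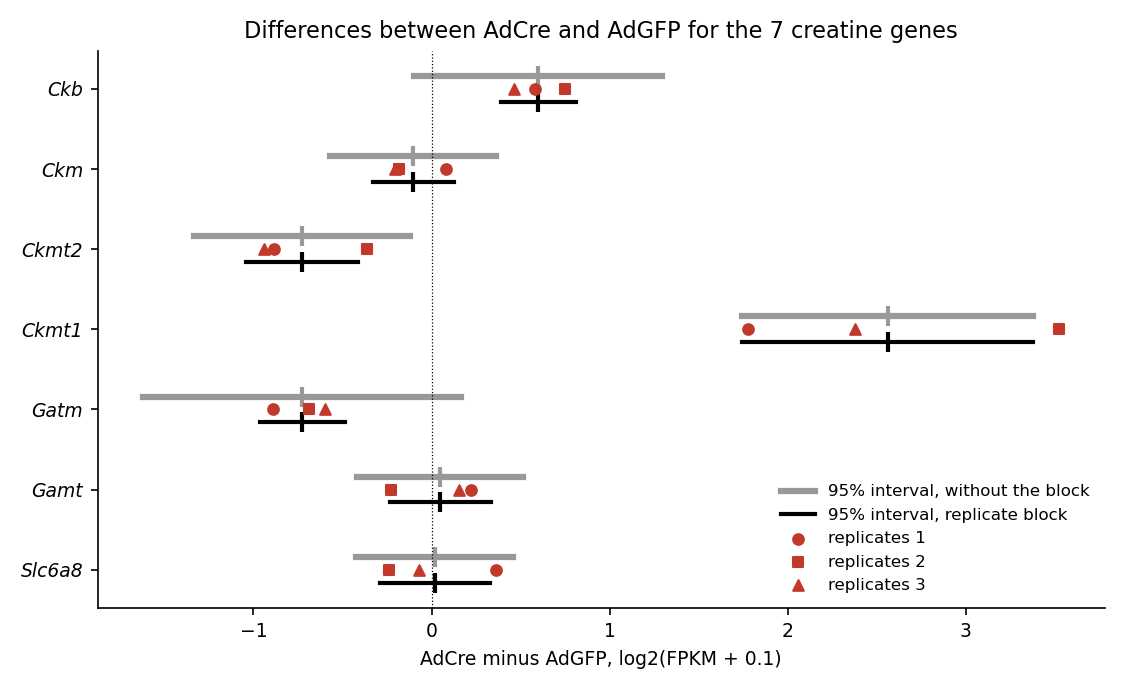
Difference between AdCre and AdGFP on the log2(FPKM + 0.1) scale (horizontal axis) for the 7 creatine genes. Red symbols are the differences within same-numbered samples, grey and black bars the 95% intervals of the limma fits without and with the replicate block, and ticks the fold change. With the block the intervals of Ckb, Ckmt2, Ckmt1 and Gatm exclude 0, and those of Ckm, Gamt and Slc6a8 include it.

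The summed creatine kinase transcript overlapped between the groups, and the shares of Ckb, Ckmt2 and Ckmt1 in it did not. Ckm, Ckb, Ckmt1 and Ckmt2 together came to 342, 296 and 236 FPKM in AdGFP and 358, 338 and 213 FPKM in AdCre, a difference of 0.04 on the log2 scale of the sum (exact two-sided permutation p 0.9; 0.41 and p 0.4 on the reads recovered from the FPKM values, which are scaled neither to length nor to depth), with AdCre 3 the lowest sample and AdCre 1 the highest. Within that sum, shares compare transcripts of 1 sample and do not depend on how the sample was scaled. They do depend on the gene lengths by which reads were divided. Ckb made up 49.5, 37.9 and 40.9% in AdGFP and 70.9, 55.7 and 62.6% in AdCre. Its mean share was thus 42.8 ± 6.02% and 63.1 ± 7.62% (SD, n = 3 each), 20.3 percentage points higher in AdCre (17.2 points on recovered reads). Ckmt2 made up 46.2, 57.2 and 54.4% in AdGFP and 23.97, 38.9 and 31.4% in AdCre, a mean share 21.2 points lower (AdCre minus AdGFP, -21.2, and -17.2 on recovered reads). The Ckmt1 share was 0.303, 0.144 and 0.241% in AdGFP and 1.06, 1.76 and 1.59% in AdCre. The Ckm share stayed between 3.66 and 4.75% in all 6 samples and overlapped (difference -0.41 percentage points, exact permutation p 0.3; -1.22 points and p 0.1 on recovered reads). For Ckb, Ckmt2 and Ckmt1 the groups did not overlap. Each of these 3 shares had an exact two-sided permutation p of 0.1, the smallest possible here, and of 0.133 after adjustment over the 4 shares. Since 4 shares sum to 100%, they are not independent of each other.

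**Figure D3:**
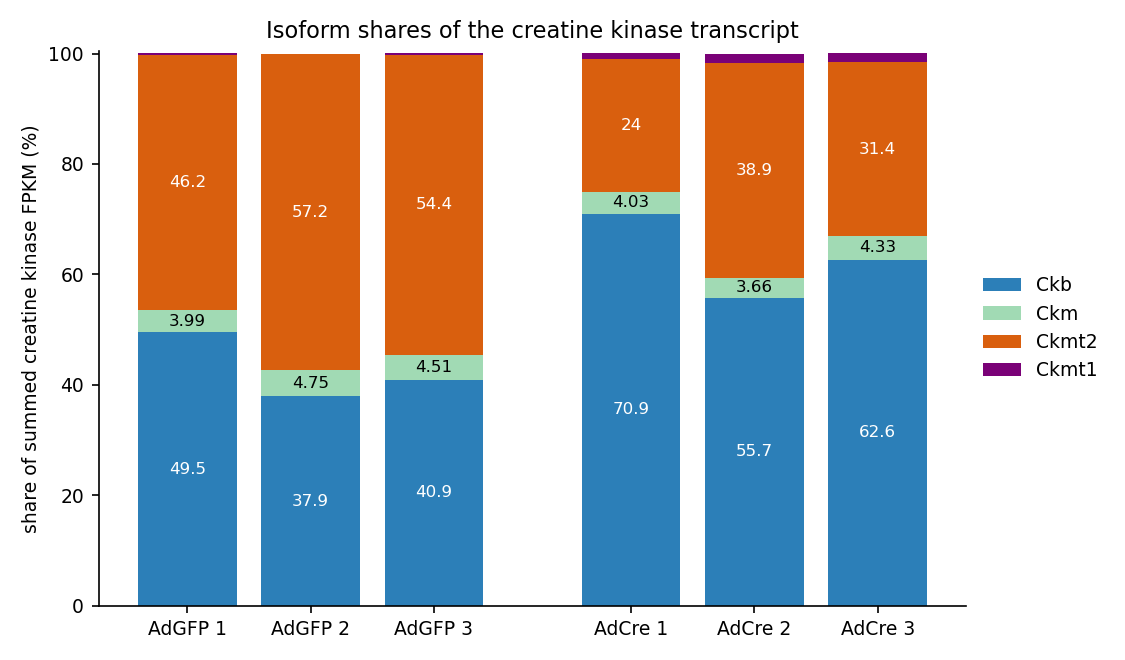
Share of each creatine kinase in the summed creatine kinase FPKM (vertical axis, percent) for each of the 6 samples. The printed numbers are the shares above 3%, and Ckmt1 is the thin segment on top. Ckb takes 37.9 to 49.5% of the bar in AdGFP and 55.7 to 70.9% in AdCre, and Ckmt2 the larger part of what remains.

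Grouped by compartment, the mitochondrial forms held 46.5, 57.4 and 54.6% of the sum in AdGFP and 25.0, 40.6 and 33.0% in AdCre. Ckmt1 remained the minor mitochondrial form in every sample, but its part of the Ckmt1 and Ckmt2 sum was 0.651, 0.252 and 0.441% in AdGFP and 4.25, 4.33 and 4.81% in AdCre, a difference of 4.01 percentage points that was 6.52 on recovered reads. These compartment shares were chosen after the values were seen and restate the shares above, and like them they depend on the gene lengths. As log2 ratios, Ckmt2 over Ckmt1 differed by -3.48, Ckm over Ckb by -0.70, Ckm over Ckmt2 by 0.63 and cytosolic over mitochondrial kinase by 1.21, in each case in the same direction in all 3 pairs and without overlap of the groups. The exact two-sided permutation p was 0.1 for each of these ratios and 0.114 after adjustment over 8 ratios. The difference in Ckm over Ckmt2 was uneven across pairs, at 0.96, 0.18 and 0.73.

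Creatine synthesis and uptake were represented by 3 genes, of which Gatm alone passed, and only with the block. Gatm (ENSMUSG00000027199, chromosome 2, 122594467 to 122611303, minus strand), which forms guanidinoacetate from arginine and glycine, was measured at 8.31, 6.50 and 13.7 FPKM in AdGFP and at 4.43, 4.0 and 9.03 FPKM in AdCre. Replicate 3 was the highest in both groups, so AdCre 3 exceeded AdGFP 1 and AdGFP 2 and the groups overlapped. Means were 9.51 ± 3.76 and 5.82 ± 2.79 FPKM (SD, n = 3 each). The log2 difference of -0.73 had an SE of 0.38 without the block (limma adjusted p 0.594) and of 0.097 with it (adjusted p 0.0233), and the pairwise differences were -0.89, -0.69 and -0.60. Without AdGFP 3 it was -0.43.

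Gamt (ENSMUSG00000020150, chromosome 10, 80258151 to 80261012, minus strand), which methylates guanidinoacetate to creatine, was measured at 6.39, 10.5 and 7.33 FPKM in AdGFP and at 7.46, 8.93 and 8.17 FPKM in AdCre. The AdCre samples lay within the AdGFP range. The log2 difference was 0.05 (SE 0.20, limma adjusted p 0.974), and the 95% interval with the block ran from -0.23 to 0.33. Slc6a8 (ENSMUSG00000019558, chromosome X, 73673150 to 73682502, plus strand), the creatine transporter of the cell membrane, was measured at 37.4, 42.0 and 32.9 FPKM in AdGFP and at 48.2, 35.5 and 31.3 FPKM in AdCre. AdCre held both the highest and the lowest sample, and the log2 difference was 0.02 (SE 0.19, limma adjusted p 0.991, 95% interval -0.42 to 0.46 without the block and -0.29 to 0.33 with it). In every sample the transporter transcript was more abundant per length than that of either synthesis enzyme.

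By FPKM, the AdGFP samples ran from Ckmt2 and Ckb, whose ranges overlapped, over Slc6a8 to Ckm, Gatm and Gamt, each of which overlapped with the next of these, and to Ckmt1 at the bottom. The order of Ckmt2 and Ckb depends on their lengths. In reads, Ckb was above Ckmt2 in AdGFP without overlap (12120, 8229 and 6896 against 5810, 6376 and 4709). In AdCre the order was Ckb, Ckmt2, Slc6a8, Ckm, Gamt, Gatm and Ckmt1. Ckb and Ckmt2 were separated there by a small margin, with a lowest Ckb value of 133 FPKM and a highest Ckmt2 value of 132 FPKM, and Gamt overlapped with Gatm and Gatm with Ckmt1. By rank among protein-coding genes Ckb went from 289 in AdGFP to 178 in AdCre and Ckmt1 from 11904 to 7670.

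The creatine genes were also set against cardiomyocyte genes of the same sample. The geometric mean of 16 sarcomere and calcium-cycling genes was 172, 151 and 117 FPKM in AdGFP and 90.6, 107.7 and 67.0 FPKM in AdCre, lower in each AdCre sample than in any AdGFP sample and different by -0.74 on the log2 scale. The log2 ratio of Ckmt2 to this mean was -0.12, 0.16 and 0.13 in AdGFP and -0.08, 0.29 and 0.00 in AdCre. The groups overlapped, with a difference of 0.01 (exact two-sided permutation p 1) and pairwise differences of 0.04, 0.13 and -0.13. The log2 ratio of Ckb was -0.02, -0.43 and -0.28 in AdGFP against 1.49, 0.81 and 0.99 in AdCre, a difference of 1.34 that adds the 0.60 of Ckb itself to the lower sarcomere mean. The ratio of Ckm was -3.66, -3.43 and -3.46 in AdGFP against -2.65, -3.12 and -2.86 in AdCre (difference 0.64). That of Slc6a8 was -2.20, -1.84 and -1.84 against -0.91, -1.60 and -1.10 (difference 0.76). Since Ckm and Slc6a8 themselves differed by -0.10 and 0.02, their ratios restate the lower sarcomere mean and are no separate result about these 2 genes.

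**Figure D4:**
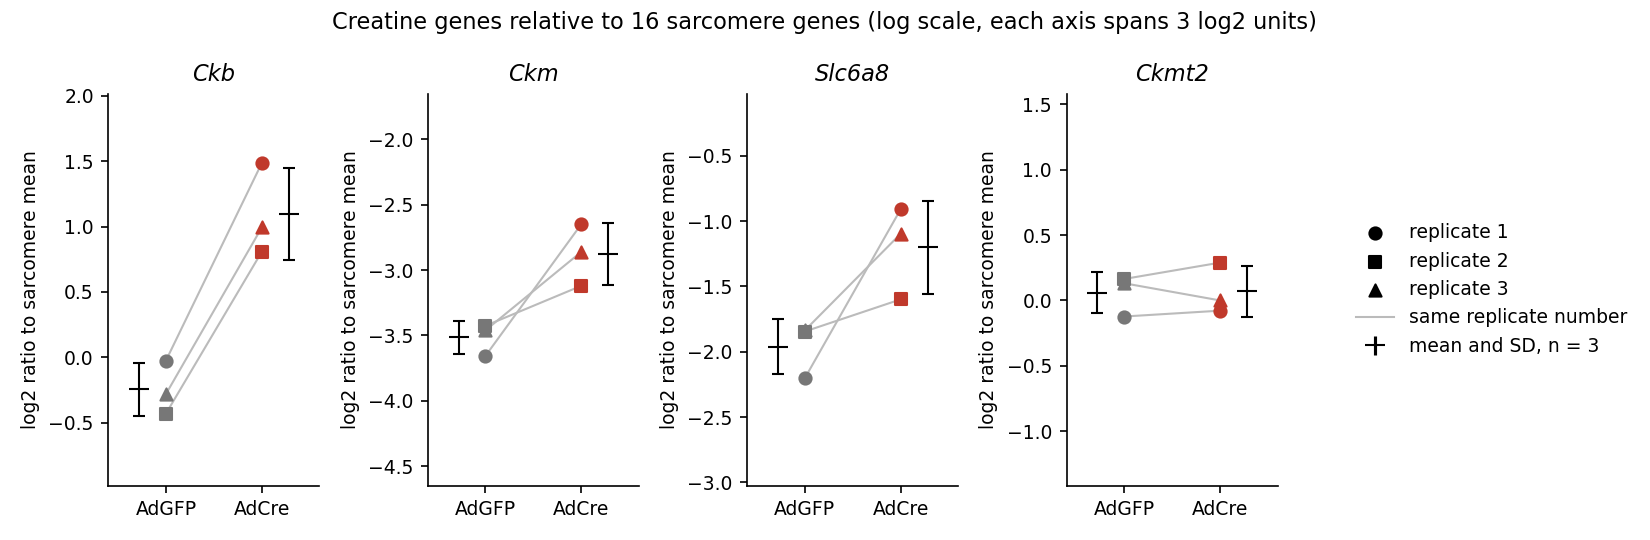
Log2 ratio of 4 creatine genes to the geometric mean of 16 sarcomere genes in the same sample (vertical axes, each spanning 3 log2 units with its own origin). Points are samples, grey lines join the same replicate number and black bars give mean and SD (n = 3). Ckmt2 overlaps between the groups, and the ratios of Ckm and Slc6a8 differ with the sarcomere mean they are divided by.

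All 16 of these sarcomere genes had a log2 fold change below 0, with a median of -0.80 beside -0.002 over all genes tested. None passed without the block (limma, 8 of 16 at an unadjusted p under 0.05, beside 10.2% of all genes) and 9 of 16 fell with it, beside 3.51% of all genes. The count was 5 without pair 2 and 0 when low genes were kept, when eBayes had no trend or without pair 3. Actn2, the Z-disc protein alpha-actinin, fell from 269 ± 33.9 to 133 ± 42.1 FPKM (limma adjusted p 0.0181 with the block, n = 3 each) and Pln, the inhibitor of the calcium pump, from 115 ± 30.7 to 47.5 ± 18.9 FPKM (limma adjusted p 0.0101 with the block). Antisense genes share 64.7% of Pln exon positions. Genes of M-band proteins, to which cytosolic creatine kinase is anchored in striated muscle, had the same sign. Of 5 listed genes 4 were tested, and all 4 were below 0 with a median of -0.45. None passed without the block (limma, 2 of 4 at an unadjusted p under 0.05, beside 10.2% of all genes). With the block 2 fell, where 3.51% of all genes did. Myom1 (myomesin) fell from 47.5 ± 10.1 to 27.6 ± 8.39 FPKM (adjusted p 0.0488) and Obsl1 from 23.9 ± 3.32 to 17.7 ± 2.29 FPKM (limma adjusted p 0.0372 with the block, n = 3 each). The M-band list had 1 call after rescaling to TPM, without the scaling factors of the authors or without pair 1, and 0 calls when low genes were kept, when eBayes had no trend or without pair 2 or 3.

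Other routes of high-energy phosphate transfer run through adenylate kinases, adenine nucleotide and phosphate carriers, voltage-dependent anion channels and nucleoside diphosphate kinases. Of 12 such genes 0 passed in either fit, where 6.15% of all genes passed with the block and 0.00725% without it. At an unadjusted p under 0.05 there were 0 without the block (limma), beside 10.2% of all genes. Their median log2 fold change was -0.09. Ak4, a mitochondrial adenylate kinase, was at 24.2 ± 6.82 FPKM in AdGFP against 16.4 ± 6.80 FPKM in AdCre. Vdac3, an outer membrane channel, was at 34.4 ± 1.89 and 31.1 ± 1.44 FPKM, and Slc25a4, the muscle adenine nucleotide carrier, at 296 ± 95.5 and 235 ± 55.0 FPKM.

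In the supply of arginine, glycine and methyl groups, 12 of 14 listed genes were tested. None passed without the block (limma, 2 of 12 at an unadjusted p under 0.05, beside 10.2% of all genes). With the block 1 rose, beside 2.64% of all genes. That gene was Ass1, argininosuccinate synthase of arginine synthesis, at 29.6 ± 4.80 FPKM in AdGFP against 61.1 ± 11.1 FPKM in AdCre (log2 difference 1.04, SE 0.18, limma adjusted p 0.174 without the block and 0.0093 with it). It was higher without overlap of the groups, as were 7.36% of all genes. The list had 0 calls when eBayes had no trend or without pair 3. Mat2b, a subunit of the enzyme that makes S-adenosylmethionine, was at 14.4 ± 0.700 and 11.3 ± 0.248 FPKM (limma adjusted p 0.341 without and 0.07 with the block). The list median was -0.06. Of 5 transporters related to Slc6a8 or moving its substrates, 0 passed in either fit, where 6.15% of all genes passed with the block and 0.00725% without it. At an unadjusted p under 0.05 there were 0 without the block (limma), beside 10.2% of all genes. The median of these transporters was -0.10. Slc6a9, a glycine transporter, was at 3.56 ± 1.17 and 2.65 ± 0.216 FPKM and Slc6a6, the taurine transporter, at 71.3 ± 28.9 and 64.1 ± 23.98 FPKM.

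AMPK, the kinase that senses AMP and ADP, is built from 3 kinds of subunits encoded by 7 genes, all of which were tested. None passed without the block (limma, 1 of 7 at an unadjusted p under 0.05, beside 10.2% of all genes) and 1 fell with it, beside 3.51% of all genes. The log2 fold change was below 0 for 4 of the 7 and above 0 for 3, with a median of -0.32. Prkab2, the beta subunit typical of muscle, fell from 30.4 ± 5.93 to 19.8 ± 5.29 FPKM (limma adjusted p 0.0477 with the block), a call that was lost after rescaling to TPM, when low genes were kept, when eBayes had no trend and without pair 1, 2 or 3. Prkag2, a gamma subunit, was at 18.1 ± 1.65 and 14.6 ± 2.23 FPKM and Prkaa2, a catalytic subunit, at 24.8 ± 6.17 and 16.5 ± 5.24 FPKM (limma adjusted p 0.0862 and 0.0599 with the block). Of 13 transcriptional regulators known to act on creatine kinase genes, 0 passed without the block (limma, 2 at an unadjusted p under 0.05, beside 10.2% of all genes) and 2 fell with it, beside 3.51% of all genes. The log2 fold change was below 0 for 9 of the 13 and above 0 for 4, with a median of -0.19. The coactivator Ppargc1a, a driver of mitochondrial genes, fell from 5.24 ± 0.534 to 3.32 ± 0.837 FPKM and Myocd (myocardin), a partner of SRF, from 21.5 ± 2.15 to 14.9 ± 3.41 FPKM (adjusted p 0.0415 and 0.043 with the block, limma). Both were lower without overlap of the groups, as were 8.02% of all genes. Without the scaling factors of the authors 1 regulator passed, and 0 did after rescaling to TPM, when low genes were kept, when eBayes had no trend or without pair 2 or 3. The nuclear receptor Esrrg was at 5.71 ± 0.615 and 4.08 ± 1.05 FPKM (limma adjusted p 0.0708 with the block).

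**Figure D5:**
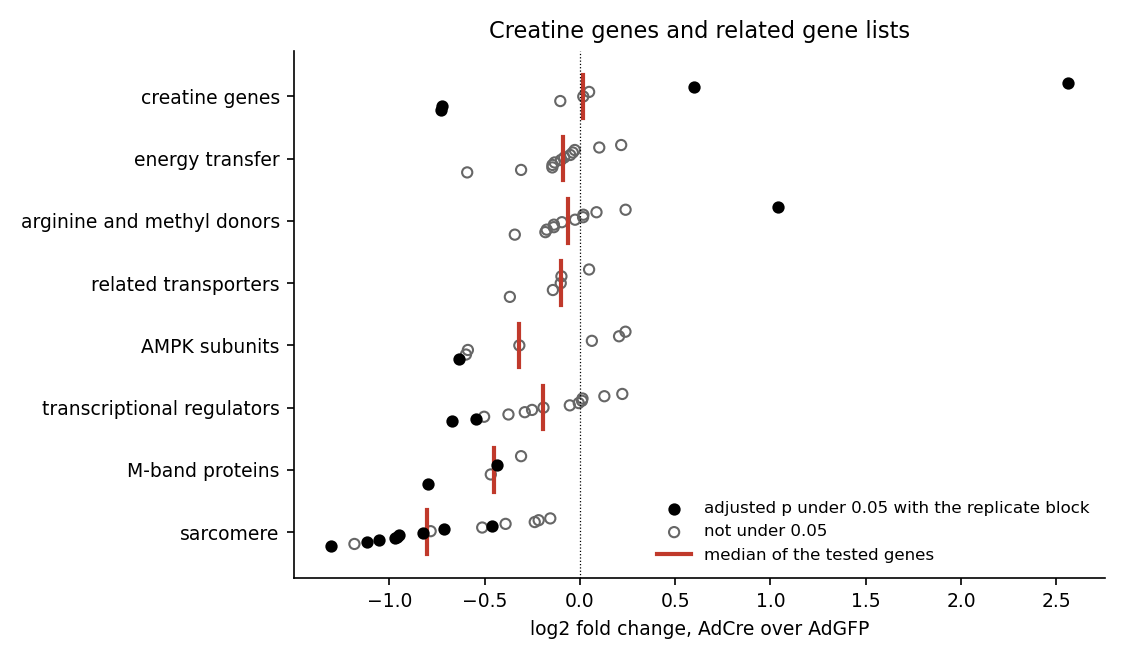
Log2 fold change of AdCre over AdGFP (horizontal axis) for every tested gene of the creatine genes and of 7 related lists. Filled points have an adjusted p under 0.05 with the replicate block, open points do not, and red ticks are list medians. The creatine genes spread from -0.73 to 2.56 around a median of 0.02, and the 16 sarcomere genes all lie below 0.

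Genes with the most similar pattern were sought among 7243 protein-coding genes averaging 5 FPKM or more, by Pearson r of log2 levels over the 6 samples. Closest to Ckb were Pdgfa (r 0.995), Hprt and Serpinb6a (both 0.992), with log2 fold changes of 0.19, 0.14 and 0.21 against 0.60 for Ckb itself. Closest to Ckmt2 were Kdm4b (0.998), Akap6 and Selenbp1 (both 0.997), with log2 fold changes of -0.39, -0.62 and -1.12. Cipc (0.994), Adora1 (0.988) and Apobec2 (0.976) came closest to Ckm, and Plpp7 (0.985), Ppif (0.973) and Dhx30 (0.942) to Slc6a8. These coefficients were selected as the highest of many over 6 samples that share the group difference and the pairing, and carry no test.

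The nearest expressed neighbours on the chromosome did not pass. Ckmt1 lies between Ppip5k1 (3.90 and 3.74 FPKM in AdGFP and AdCre, log2 fold change -0.08) and Catsper2 (0.5998 and 0.531 FPKM, -0.19), and Ckb between Mark3 (log2 fold change 0.00) and Trmt61a (0.05). For Ckmt2 they were Zcchc9 (0.07) and Rasgrf2 (-0.44), and for Gatm Shf (0.34) and Spata5l1 (0.16). Over the 14 neighbours of the 7 genes the smallest limma adjusted p with the block was 0.0571, for Ndufs7 beside Gamt. Ckmt1 and Gatm lie on the same chromosome, 1230730 bases apart, and had log2 fold changes of opposite sign, an observation made after the values were seen.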

How the data were processed

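RNA-seq of 6 samples (3 AdGFP, 3 AdCre) was analysed from 1 deposited table. The FPKM values were made by the authors, and the submitters' processing notes name fastp, STAR 2.5, HTSeq 0.6.1 and the mm10 build, while annotation, strand use and the FPKM denominator are not given in the sources used here. Per the labels, poly-T beads selected messenger RNA and random hexamers primed cDNA. Samples were grouped by their labels, and all table columns belonged to a sample. Of 54532 IDs, 54495 were in GENCODE M21 (GRCm38), the source of symbols, lengths and positions.

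FPKM times exon length gave whole reads for 96.3 to 96.4% of genes with a value (tolerance 0.02 reads). Depth was 25.3 to 32.4 M reads, and 1 FPKM in a 2 kb transcript stood for 49.3 to 64.1 reads. Genes averaging 0.5 FPKM or more were tested as log2(FPKM + 0.1), a scale that understates changes of low genes, with limma 3.58.1 in R 4.3.3 (lmFit, eBayes with trend, Benjamini-Hochberg over all genes tested). Shares and ratios were tested with exact two-sided permutation tests (scipy 1.17.1). Same-numbered samples had correlated deviations (0.568, 0.268 and 0.506 for numbers 1, 2 and 3, other combinations -0.497 to 0.036). Each exceeds 0.1, so the replicate number was treated as a pairing, for which these values are the only evidence, and results of the blocked fit stand beside those whose call it changes.

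The creatine genes, the related gene lists and the cell type markers were chosen with earlier results of these data known. Genes were named by rule: all 7 creatine genes, the 2 or 3 genes with the smallest p in each related list, and the 3 most correlated genes for Ckm, Ckb, Ckmt2 and Slc6a8. Genes of the marker lists and the chromosome neighbours were named after their values were seen. Alternatives were pseudocounts of 1 and 0.01, other filters and scalings, eBayes without trend, voom on recovered reads, the replicate block, and each sample left out in turn. Settings of the blocked fit and compartment shares were added after seeing the data. No protein sequences were used here.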

Additional observations from a re-analysis of the deposited data

How the results depend on the processing

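The replicate block changed 4 calls among the creatine genes, those of Ckb (0.60), Ckmt1 (2.56), Ckmt2 (-0.73) and Gatm (-0.73), and no call of Ckm, Gamt or Slc6a8. It raised the calls from 0 to 1 in the arginine and methyl donor list, 1 in AMPK, 2 in the regulators, 2 in M-band proteins and 9 in the sarcomere list. Genes called over all genes, 1 in the fit without the block, were 848 with the block, 3 with a pseudocount of 1, 0 without a filter, 4 without a trend, 0 with voom and 0 to 2 with 1 sample left out. At an unadjusted p under 0.05 there were 1402.

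Settings of the blocked fit were chosen after seeing the data. All 4 calls were kept after rescaling to TPM (Ckb 0.69, Ckmt1 2.78, Ckmt2 -0.64, Gatm -0.64), without the scaling factors of the authors (0.66, 2.62, -0.67, -0.66) and with voom (0.66, 2.75, -0.66, -0.66). The list counts, in the order given above, were 1, 0, 0, 1 and 9 with TPM, 1, 1, 1, 1 and 9 without the scaling factors and 1, 2, 4, 3 and 13 with voom, where all genes came to 875, 874 and 1741. All 4 calls were lost without a filter (adjusted p 0.0805 to 0.125), without a trend (0.0754 to 0.104) and without pair 3 (0.0882 to 0.152), where 17, 0 and 1 genes were called in all and the arginine and methyl donor list had 1 call without a filter. Without pair 1, 772 genes were called, and Ckb (0.61), Ckmt1 (2.95) and Gatm (-0.64) passed while Ckmt2 did not (adjusted p 0.0542), with list counts of 2, 0, 2, 1 and 10. Without pair 2, 149 were called, and Ckmt1 (2.08) and Ckmt2 (-0.91) passed while Ckb (adjusted p 0.106) and Gatm (0.0793) did not, with list counts of 1, 0, 0, 0 and 5. The cause of these losses was not tested.

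With 1 sample left out of the fit without the block, log2 fold changes ran from -0.25 to 0.074 for Ckm, 0.37 to 0.84 for Ckb, 2.32 to 2.87 for Ckmt1, -0.99 to -0.51 for Ckmt2, -0.10 to 0.25 for Gamt, -1.09 to -0.43 for Gatm and -0.16 to 0.15 for Slc6a8. The sum of creatine kinases ran from -0.11 to 0.27, and the ratio of Ckmt2 to the sarcomere mean from -0.097 to 0.087 and was -0.010 with quantile normalization. In the blocked fit Gamt was at -0.037 without pair 1 and -0.0045 without pair 3, and Slc6a8 at -0.16 without pair 1. Leaving out 1 sample kept the sign of every other share and ratio, with the Ckb share 16.4 to 24.04 points higher and the Ckmt2 share different by -24.9 to -17.4 points. Depth limits Ckmt1 most, with 27 to 64 reads in AdGFP.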
